A study of Mus musculus with 6 samples.

Results

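The genes described here are the receptor tyrosine kinase genes Kit, Met, Alk and Ltk with the ligand genes Kitl, Hgf, Mdk and Ptn, which make 8 genes of the 14860 that had a row with a single gene symbol. They were taken by symbol from the array platform's probe table. Within a gene, rows were to be chosen by their mean log2 value over the 6 arrays, the brightest row standing for the gene. Each of the 8 genes had 1 row, so those values decided nothing, and the means ran from 4.12 for Hgf to 9.62 for Met. Expression was measured in lumbar spinal motor neurons of mouse embryos on embryonic day 12, with 3 arrays of medial and 3 arrays of lateral motor neurons. Both groups came from HB9::GFP embryos (line mHB9-Gfp1b), in which regulatory sequence of the motor neuron gene Mnx1, also named HB9, drives green fluorescent protein. Columns of the cord were dissected, dissociated and sorted for fluorescence, and no further treatment was given. A sample therefore holds the cells that carried the reporter at this one age, and the labels do not say how many embryos were pooled. The medial group is named for the column that innervates the muscles along the spine, and the lateral group for the column that innervates the limb.

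Receptor tyrosine kinases are membrane proteins that pair when a ligand binds and then phosphorylate each other, which recruits adaptors and starts the Ras, phosphoinositide kinase and STAT pathways. Kit ligand, also called stem cell factor, is made as a membrane protein that can be shed, and Kit is best known in blood, germ and pigment cells. Hepatocyte growth factor, the ligand of Met, is made by limb mesenchyme and acts on motor axons that grow into the limb. Pleiotrophin and midkine are small heparin-binding growth factors that bind several receptors, Alk among those reported, whereas the Alkal proteins are the established ligands of Alk and Ltk.

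Marker genes of the columns were read first, beside the labels. The medial column genes Lhx3, Lhx4 and Mecom averaged 10.42, 10.94 and 10.64 on the log2 scale in medial samples, against 7.19, 8.40 and 7.36 in lateral samples. The lateral column genes Foxp1, Aldh1a2 and Lhx1 averaged 9.18, 7.52 and 6.44 in medial samples, against 12.18, 12.39 and 9.02 in lateral samples. All 6 passed the test used here, each in the direction its label implies. The marker lists were chosen with earlier results of these arrays known, so this describes the samples and is no separate evidence for the labels. The motor neuron genes Slc18a3, which encodes the vesicular acetylcholine transporter, and Isl1 averaged 12.33 and 11.07 in medial samples, against 12.18 and 11.71 in lateral samples. Of 10 motor neuron markers, 4 were higher and 3 lower in medial samples, and Lhx3, Lhx4, Foxp1 and Aldh1a2 are among these 7. The others were Isl1, which was lower, and Mnx1 and Isl2, named here after their values were seen. Mnx1, whose regulatory sequence drives the sorted reporter, averaged 11.04 in medial samples, against 9.62 in lateral samples (2.67-fold higher, limma adjusted p = 0.00102), and Isl2 averaged 11.47 in medial samples, against 9.90 in lateral samples. The part of the reporter's level in the results below was not tested. The table held 23332 rows per array, the array medians lay between 6.73 and 6.84, and 3 arrays per group set the limit of precision for every value below.

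Of the 8 genes, 2 passed an adjusted p of 0.05 in limma, Kitl and Ptn, both lower in medial samples, and 0 passed as higher, where Mdk and Alk had an unadjusted p under 0.05. Across all rows 3.07% passed, 1.94% as lower and 1.13% as higher. Both genes that passed encode ligands. Of the 4 receptor genes 0 passed in limma. An unadjusted p under 0.05 was met by 2 of them, Kit and Alk, by 3 of the 4 ligand genes, and by 13.4% of all rows. Values of the columns were fully separate in 5 of the 8 genes, against 19.3% of all rows. In 3 of these medial values were the lower ones, against 9.15% of all rows, and in 2 the higher ones, against 10.2%. The genes were chosen with earlier results of these arrays known, so these counts describe the set and are no evidence about it. The median log2 difference of the 8 genes was -0.00082, beside 0.017 for all rows. Of the 8, Kitl alone also differed by at least 1.5-fold, the size named in the series' design, a combination met by 2.69% of all rows.

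**Figure D1:**
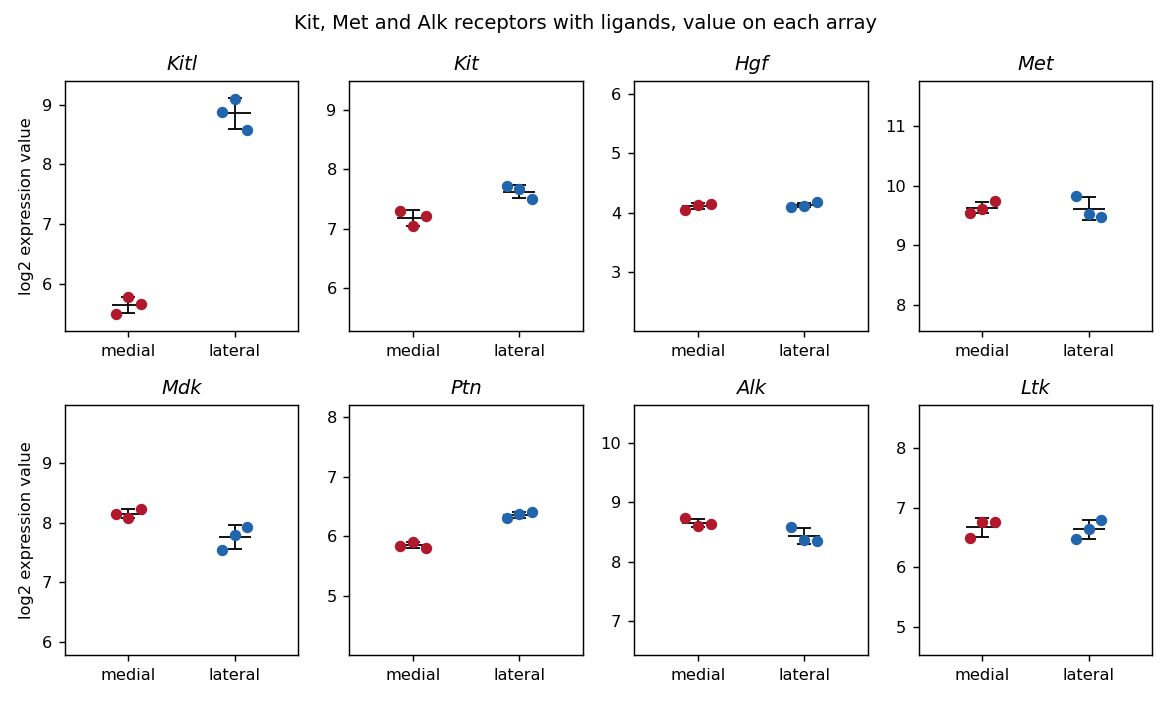
Log2 expression value (vertical axis, each panel spanning the same range of log2 units) of each gene on the 3 medial (red) and 3 lateral (blue) arrays, with the mean and SD in black. Kitl stands at 5.50 to 5.77 in medial and 8.59 to 9.10 in lateral samples, while the values of Hgf, Met and Ltk overlap between the groups.

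Kitl encodes the ligand of Kit and lies on chromosome 10. It was 9.31-fold lower in medial samples, and 10 of the 23332 rows had a larger difference in either direction. Log2 values of Kitl were 5.50, 5.77 and 5.65 in medial samples, against 8.89, 9.10 and 8.59 in lateral samples. Every medial value lay below every lateral value, and the gap between the groups was several times the spread within either. The difference was -3.22 ± 0.15 (log2, SE, n = 3 each, limma adjusted p = 0.000401), with a 95% interval from -3.58 to -2.86, that is from 11.9-fold to 7.27-fold lower. Kitl was proposed for this account with its difference known, so the p-value is given as a description. In sorted bulk samples, fewer cells that express a gene and less RNA per cell cannot be told apart.

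The table used here carries no detection calls. Rows of odorant and vomeronasal receptors, genes of the nose, were therefore taken as a guide to the level of unexpressed genes, although probes differ in affinity. Here and below, each such row was read at the mean of its brighter group, whichever mean of a gene it was set against. That can raise the counts. Of 800 such rows, 90 had a mean at or above the medial mean of Kitl, 5.64, and 0 reached its lateral mean, 8.86. The medial level of Kitl thus cannot be separated from background, and its fold may understate the difference. Leaving out each sample in turn kept the call in all 6 fits, with a log2 difference between -3.36 and -3.10 and an adjusted p between 0.00139 and 0.00514.

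Because Kitl and Ptn are the genes that passed, the 250 bases before their annotated starts are shown, from RefSeq on assembly GRCm38.p6, where 7 of the 8 genes had an entry. The Kitl window is chr10:100015571-100015820 on the plus strand and the Ptn window is chr6:36810180-36810429 on the minus strand. Both are written 5′ to 3′, and capitals mark matches on either strand to the motifs searched, which may overlap. The letters TATAAA stand for the TATA box of core promoters. The letters CCGGAA stand for the core of ETS factors such as Etv4. The letters TGTTTAC stand for forkhead factors such as Foxp1, the letters TAATTA for homeodomain factors, and the letters GGGCGG for the GC box.
Kitl: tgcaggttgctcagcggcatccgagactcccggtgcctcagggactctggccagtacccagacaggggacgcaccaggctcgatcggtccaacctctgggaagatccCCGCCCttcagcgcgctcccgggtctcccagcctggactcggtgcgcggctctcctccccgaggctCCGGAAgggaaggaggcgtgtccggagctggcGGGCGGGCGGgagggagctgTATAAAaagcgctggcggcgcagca
Ptn: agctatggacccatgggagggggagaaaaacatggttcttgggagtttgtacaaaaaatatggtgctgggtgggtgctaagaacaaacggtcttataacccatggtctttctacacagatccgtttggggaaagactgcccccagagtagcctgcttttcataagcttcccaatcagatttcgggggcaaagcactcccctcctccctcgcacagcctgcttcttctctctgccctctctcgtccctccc
The Kitl window held 1 TATA box, whose first letter lies 25 bases before the start, 1 ETS core 77 bases before it, and 3 GC boxes at 143, 45 and 41 bases, the last of which overlap. It held 0 forkhead and 0 homeodomain matches, and the Ptn window held 0 of the 5 motifs. Of 32851 windows of this length in the RefSeq table, 12.4% held the TATA box, 12.03% the ETS core, 3.17% the forkhead motif, 4.84% the homeodomain motif and 32.7% the GC box. The windows also differed in base composition, with 69.2% G or C for Kitl and 52.0% for Ptn, beside a median of 52.4% over all windows. A match is only a match of letters and no site of binding.

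Kit, the receptor gene of this pair, lies on chromosome 5. It had log2 values of 7.30, 7.04 and 7.21 in medial samples, against 7.72, 7.66 and 7.50 in lateral samples. The groups did not overlap, with the lateral values above the medial ones as for Kitl, but the difference of -0.44 ± 0.10 (log2, SE, n = 3 each) did not pass (limma adjusted p = 0.0979). Its 95% interval ran from -0.69 to -0.19, that is from 1.61-fold to 1.14-fold lower in medial samples. Of the 800 nasal receptor rows, 4 had a mean at or above its lateral mean and 8 at or above its medial mean. Under 9 other settings on all 6 arrays, 5 brought it past the threshold, and its adjusted p lay between 0.0326 and 0.14. With any 1 array removed it did not pass in limma (adjusted p from 0.106 to 0.265 over the 6 fits).

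**Figure D2:**
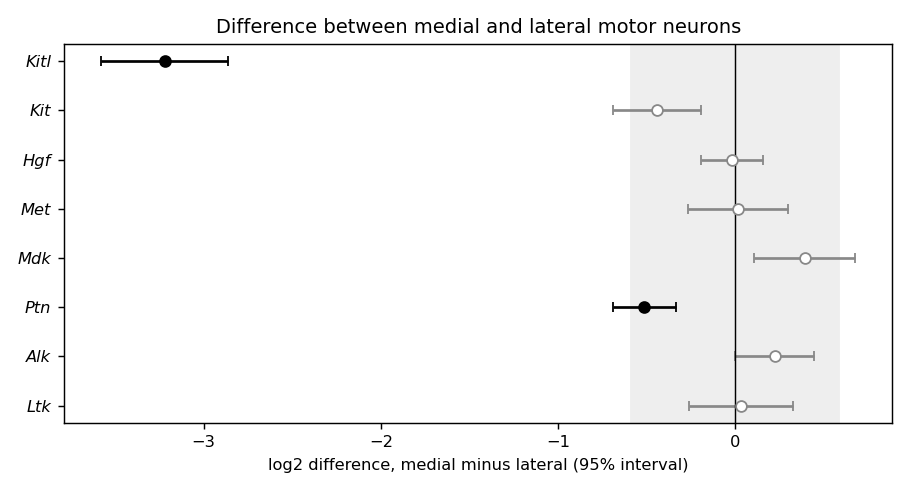
Log2 difference, medial minus lateral, of each gene with its 95% interval from limma; filled points passed an adjusted p of 0.05, open points did not, and the grey band spans differences under 1.5-fold. Kitl lies at -3.22, far outside the band, and the points of the other 7 genes lie within it.

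Hgf encodes the ligand of Met and lies on chromosome 5. Log2 values of Hgf were 4.05, 4.14 and 4.15 in medial samples, against 4.10, 4.11 and 4.17 in lateral samples. The groups overlapped, and the difference of -0.02 ± 0.07 (log2, SE) did not pass (limma adjusted p = 0.959). Of the 800 odorant and vomeronasal receptor rows, 389 had a mean at or above that of Hgf in its brighter group, so its level cannot be told from background in either column.

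Met, the receptor gene, lies on chromosome 6, and its values were high in both columns. They were 9.55, 9.61 and 9.74 in medial samples, against 9.83, 9.53 and 9.48 in lateral samples, and 0 of the 800 rows of nasal receptors reached them. The lateral values lay on both sides of the medial ones. The difference was 0.02 ± 0.12 (log2, SE, limma adjusted p = 0.98), with a 95% interval from -0.27 to 0.30, so medial levels from 1.20-fold lower to 1.23-fold higher remain within the error. Etv4, an ETS factor of limb motor pools, was measured on the same arrays and averaged 7.63 ± 0.10 in medial samples and 10.17 ± 0.05 in lateral samples (log2, SD, n = 3 each).

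Mdk, the midkine gene, and Ptn, the pleiotrophin gene, encode related growth factors, and their values lay in opposite directions. Mdk, on chromosome 2, had log2 values of 8.15, 8.08 and 8.22 in medial samples, against 7.54, 7.79 and 7.94 in lateral samples. The medial values were all above the lateral ones and lay closer together, with an SD of 0.07 in medial and 0.20 in lateral samples. The difference of 0.39 ± 0.12 (log2, SE) did not pass (limma adjusted p = 0.198), and its 95% interval ran from 0.11 to 0.68, before adjustment over all rows. Of the nasal receptor rows, 0 reached its medial mean and 3 its lateral mean.

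Ptn, on chromosome 6, had log2 values of 5.83, 5.91 and 5.81 in medial samples, against 6.31, 6.37 and 6.41 in lateral samples. The groups did not overlap, and the values within each lay within 0.10 of each other. Ptn was 1.43-fold lower in medial samples, at -0.51 ± 0.07 (log2, SE, n = 3 each, limma adjusted p = 0.018), with a 95% interval from -0.69 to -0.33. Removing any 1 medial array, or lateral replicate 2 or 3, ended the call (adjusted p from 0.0585 to 0.0929), which held without lateral replicate 1 (adjusted p = 0.0441). With the replicate number as a block the adjusted p was 0.0679. The row was dim in both columns, and 34 of the 800 nasal receptor rows had a mean at or above its lateral mean of 6.36 and 72 at or above its medial mean of 5.85. As for Kitl, the medial level cannot be separated from background. Unlike that of Kitl, the lateral level also lay near background, little above the 95th percentile of the nasal receptor rows, 6.18. The fold of Ptn is therefore uncertain, and it may understate the difference.

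Alk, on chromosome 17, is expressed in the developing nervous system and is known for activating mutations in neuroblastoma. It had log2 values of 8.73, 8.60 and 8.63 in medial samples, against 8.58, 8.37 and 8.34 in lateral samples. The groups were adjacent without overlap, 0.02 apart on the log2 scale, and the difference of 0.22 ± 0.09 (SE) did not pass (limma adjusted p = 0.372). Its 95% interval reached from just above 0 to 0.45, that is to 1.37-fold higher in medial samples.

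Ltk, the close relative of Alk, lies on chromosome 2. Values of Ltk were 6.49, 6.75 and 6.77 in medial samples, against 6.47, 6.65 and 6.79 in lateral samples. The groups overlapped fully, and the difference was 0.03 ± 0.12 (SE, limma adjusted p = 0.952), with a 95% interval from -0.26 to 0.33. Of the 800 nasal receptor rows, 21 had a mean at or above that of Ltk in its brighter group. The Alkal genes, which encode the ligands of both receptors, had 0 rows with a single symbol of the 2 genes looked for and were not analysed here.

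**Figure D3:**
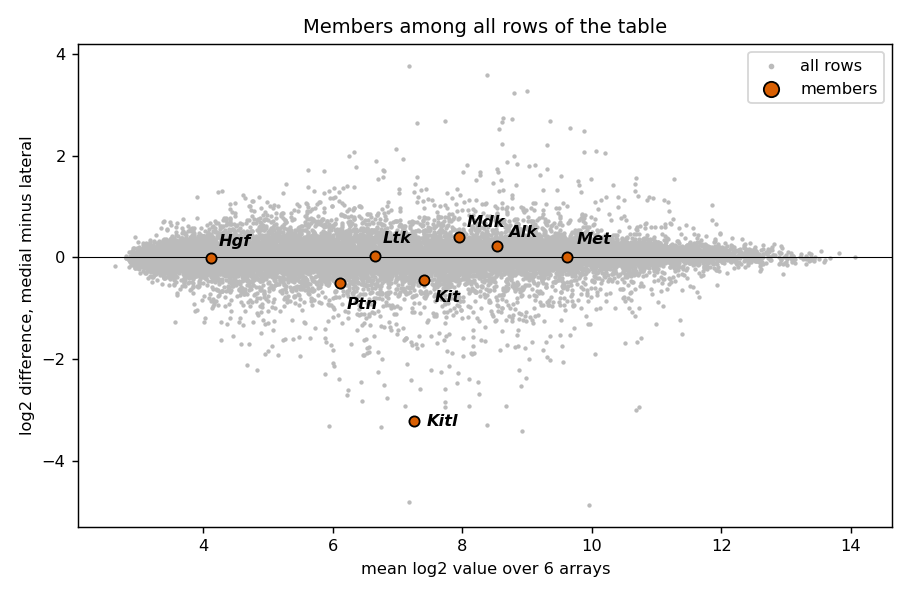
Log2 difference, medial minus lateral, against the mean log2 value over 6 arrays, for all 23332 rows (grey) and the 8 genes (orange). Kitl lies among the rows with the most negative differences, and the other 7 genes lie within the body of the cloud.

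Among the lateral samples, replicate 1 had the highest value for Kit, Met and Alk and the lowest for Hgf, Mdk, Ptn and Ltk. Without it, the difference of Met was 0.13 and that of Mdk 0.28 on the log2 scale, and neither passed.

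Markers of other cell types were read on the same arrays, as the sum of their values on a linear scale. Beside the counts of markers called, 3.07% of all rows passed. Of 6 measured markers of the floor plate, the ventral midline of the cord, 2 were lower in medial samples and 0 higher, and the sum was 1199 to 1312 in medial samples, against 2338 to 2462 in lateral samples. The lower markers were Spon1 (log2 difference -1.30 ± 0.10, SE, limma adjusted p = 0.00178) and Shh (-1.03 ± 0.12, adjusted p = 0.00892). Spon1 alone made up most of the difference between the sums, and Shh most of the rest. Foxa2 and Foxa1, transcription factors that define the floor plate, averaged 6.97 and 5.69 in medial samples, against 6.94 and 5.65 in lateral samples, and did not pass. The part of floor plate cells in the difference of Kitl was not tested.

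Markers of mesenchyme, a source of Hgf and of Ptn, summed to 4031 to 4197 in medial samples, against 4533 to 4634 in lateral samples. Of 12 measured, 0 were lower and 1 was higher in medial samples, Dcn, which lost its call when any 1 sample was left out. The brightest of them, Crabp2, averaged 11.64 in medial samples, against 11.85 in lateral samples, and did not pass. Crabp2 alone made up most of this sum and most of its difference between the columns. Markers of progenitors and radial glia, cells in which Ptn and Mdk are well known, summed to 9581 to 10119 in medial samples, against 9849 to 10661 in lateral samples, with 1 of 12 higher (Sox2) and 1 lower (Nkx6-1). The brightest of them, Vim, averaged 12.90 in medial samples, against 12.94 in lateral samples, and made up most of that sum. The part of these cells in the differences of Ptn and Mdk was not tested. The sums overlapped for markers of cells known for Kit. Those of melanoblasts summed to 156 to 169 in medial samples, against 162 to 173 in lateral samples, and those of sensory neurons and neural crest to 4501 to 4775 in medial samples, against 4529 to 5028 in lateral samples, with Pmel and Ngfr the brightest and 0 of 5 called in limma in each list. All 5 melanoblast markers averaged below 6.18, the 95th percentile of the nasal receptor rows, in both columns. Their sum therefore cannot be told from background and gives no measure of these cells. Ngfr, at 12.06 in medial and 12.07 in lateral samples, made up most of the sum of its list. That sum therefore says little of the other markers, and only 5 of the 11 on that list were measured. In both lists 0 had an unadjusted p under 0.05, and the part of these cells in the difference of Kit was not tested.

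Markers of interneurons summed to 992 to 1066 in medial samples, against 931 to 1169 in lateral samples, with 1 of 12 called higher, Slc17a6. Those of endothelium summed to 401 to 412 in medial samples, against 380 to 422 in lateral samples, with 1 of 9 called higher, Cldn5. Those of blood and myeloid cells summed to 269 to 335 in medial samples, against 324 to 337 in lateral samples, and those of skeletal muscle to 671 to 737 in medial samples, against 677 to 802 in lateral samples. Of these last lists 0 of 7 and 0 of 9 were called in limma, and 0 had an unadjusted p under 0.05. Evx1, Egfl7, Cx3cr1 and Acta1 were the brightest of the 4 lists. Every endothelium marker but Egfl7 averaged below 6.18, the 95th percentile of the nasal receptor rows. So did every blood and myeloid marker but Cx3cr1, so these sums hold mostly rows near background. Among the markers that passed, Sox2 and Cldn5 lost their calls when any 1 sample was left out, Nkx6-1 without any 1 sample other than lateral replicate 3, and Slc17a6 without medial replicate 3.

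The genes whose pattern over the 6 arrays lay closest to that of Kitl were sought by the root mean square difference between values centred on each gene's mean, among 13604 other genes. They were the muscarinic receptor gene Chrm3 and the copine gene Cpne4, each at 0.19 log2 units, followed by Foxp1, the zinc finger gene Bnc2 and the somatostatin gene Sst, each at 0.26. Chrm3 averaged 7.21 ± 0.08 in medial samples and 10.63 ± 0.09 in lateral samples (log2, SD, n = 3 each). Over these 5 genes the log2 difference, medial minus lateral, ran from -3.42 for Chrm3 to -2.84 for Bnc2, around the -3.22 of Kitl. The search picks genes for such closeness, so the likeness of these differences is no separate result. The genes closest to Ptn were Lamp5 and Nkd2, at 0.035 and 0.037 log2 units, then Col4a2, Col6a3 and Rbm43 at 0.044, 0.052 and 0.056.

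**Figure D4:**
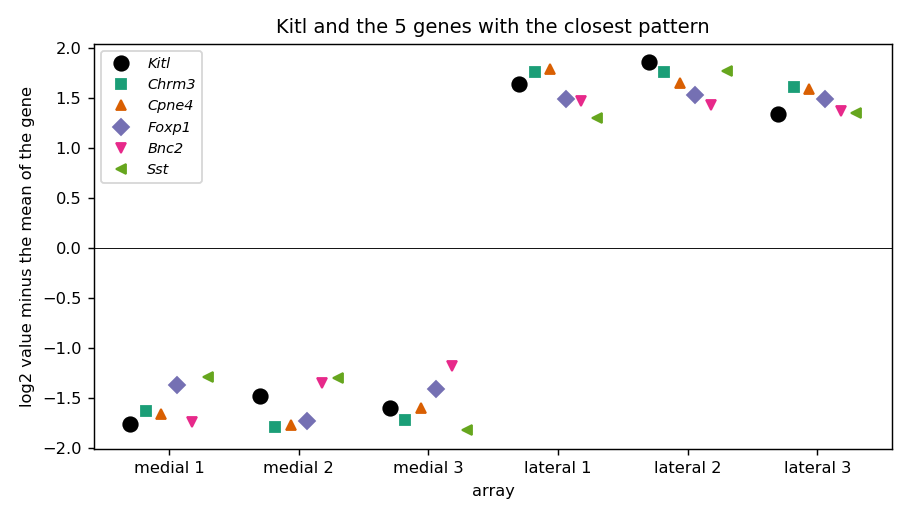
Log2 value minus the mean of the gene on each of the 6 arrays, for Kitl (black circles) and the 5 genes with the closest pattern. All 6 genes lie below their mean on each medial array and above it on each lateral array, which follows from how the 5 were picked.

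The genes next to each of the 8 in the RefSeq annotation, among those with a single-symbol row, were looked up after the values of the 8 were seen. Those beside Kitl, Csl and Cep290, had log2 differences of 0.12 ± 0.21 and -0.02 ± 0.13 (SE), and those beside Ptn, Chrm2 and Creb3l2, had -0.10 ± 0.19 and 0.16 ± 0.08, so 0 of these 4 passed in limma, and 0 had an unadjusted p under 0.05. Kit lies between the receptor genes Pdgfra and Kdr, at -0.01 ± 0.07 and 0.09 ± 0.09. Of all 16 neighbours 1 passed and 2 had an unadjusted p under 0.05, beside 3.07% and 13.4% of all rows. The 1 that passed was the calcium channel subunit gene Cacna2d1 beside Hgf, at -0.64 ± 0.10 (limma adjusted p = 0.0245). Its call ended when any 1 sample was left out (adjusted p from 0.0533 to 0.10).

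Genes that act before and after these receptors were described by lists, chosen with earlier results known. Beside the counts below, 3.07% of all rows passed and 13.4% had an unadjusted p under 0.05. Of 11 receptors related in structure to Kit and their ligands, 0 passed in limma and 2 had an unadjusted p under 0.05, both ligand genes of the platelet-derived growth factor family. Pdgfc averaged 6.94 in medial samples, against 7.52 in lateral samples (adjusted p = 0.0622), and Pdgfa averaged 8.55 in medial samples, against 8.86 in lateral samples (adjusted p = 0.176). Pdgfc passed under 4 of the 9 other settings (adjusted p from 0.0161 to 0.156). The list had a median log2 difference of -0.03, beside 0.017 for all rows.

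Of 15 measured genes of HGF activation and of partners of Met, 0 passed in limma and 0 had an unadjusted p under 0.05, with a median of -0.01. The smallest p-values belonged to Plau, which encodes the protease urokinase, at 0.41 ± 0.19 (log2 difference, SE), and to the plexin gene Plxnb2 at -0.17 ± 0.08.

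Of 15 measured binding partners of pleiotrophin and midkine, 1 passed as lower in medial samples and 0 as higher, with a median of -0.05. This was Vcan, which encodes the matrix proteoglycan versican and was 1.61-fold lower (log2 difference -0.69 ± 0.09, SE, limma adjusted p = 0.0156). Log2 values of Vcan were 10.23, 10.15 and 10.43 in medial samples, against 11.01, 10.94 and 10.93 in lateral samples. Replicates 1 and 2 of either column were each needed for this call (adjusted p up to 0.0727 without one of them).

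Of 11 measured genes listed for Kit ligand shedding and Kit gene regulation, 1 passed as higher in medial samples and 0 as lower, with a median of -0.02. Mmp2, a matrix metalloproteinase gene, had log2 values of 9.45, 9.36 and 9.58 in medial samples, against 8.55, 8.76 and 8.25 in lateral samples. It was 1.92-fold higher in medial samples (log2 difference 0.94 ± 0.14, SE, limma adjusted p = 0.0215). The call ended without any 1 medial sample or lateral replicate 1 (adjusted p up to 0.0976). Whether Mmp2 acts on Kit ligand was not tested.

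Of 38 measured adaptors and effectors, 3 passed as lower and 1 as higher in medial samples, with a median of -0.05. The lower ones were Dok5, an adaptor of the Dok family, at 1.78-fold, and the Shc adaptor genes Shc3 and Shc4 at 1.52-fold and 1.55-fold. Dok5 averaged 9.36 ± 0.23 in medial samples and 10.20 ± 0.10 in lateral samples, and Shc3 averaged 9.69 ± 0.12 in medial samples and 10.29 ± 0.10 in lateral samples (log2, SD, n = 3 each). Irs1, the insulin receptor substrate gene, was 1.64-fold higher in medial samples. Their limma adjusted p-values were 0.0234, 0.0258, 0.0263 and 0.048 for Dok5, Shc3, Shc4 and Irs1. The calls of Shc3 and Irs1 ended when any 1 sample was left out. That of Shc4 ended without any 1 sample other than lateral replicate 2, and that of Dok5 without medial replicate 1 or any 1 lateral sample.

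Of 18 measured genes of the Ras, MAP kinase and Akt cascades, 0 passed in limma and 3 had an unadjusted p under 0.05, with a median of 0.0078. The kinase gene Pak3 had the smallest p, at -0.42 ± 0.10 (log2 difference, SE, adjusted p = 0.112), and passed under 4 of the 9 other settings (adjusted p from 0.0234 to 0.112). The GTPase gene Rap1a followed at -0.38 ± 0.11.

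Of 22 measured feedback inhibitors and early targets, 2 passed as lower in medial samples and 0 as higher, with a median of 0.08. Etv4 was 5.80-fold lower in medial samples (log2 difference -2.54 ± 0.08, SE, limma adjusted p = 0.000133), and its call held whichever sample was left out. Spry4, a Sprouty inhibitor of receptor tyrosine kinase signalling, was 1.81-fold lower. It had log2 values of 7.94, 7.52 and 7.82 in medial samples, against 8.71, 8.50 and 8.64 in lateral samples (adjusted p = 0.021). The call of Spry4 ended without medial replicate 3 or any 1 lateral sample (adjusted p up to 0.0811).

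**Figure D5:**
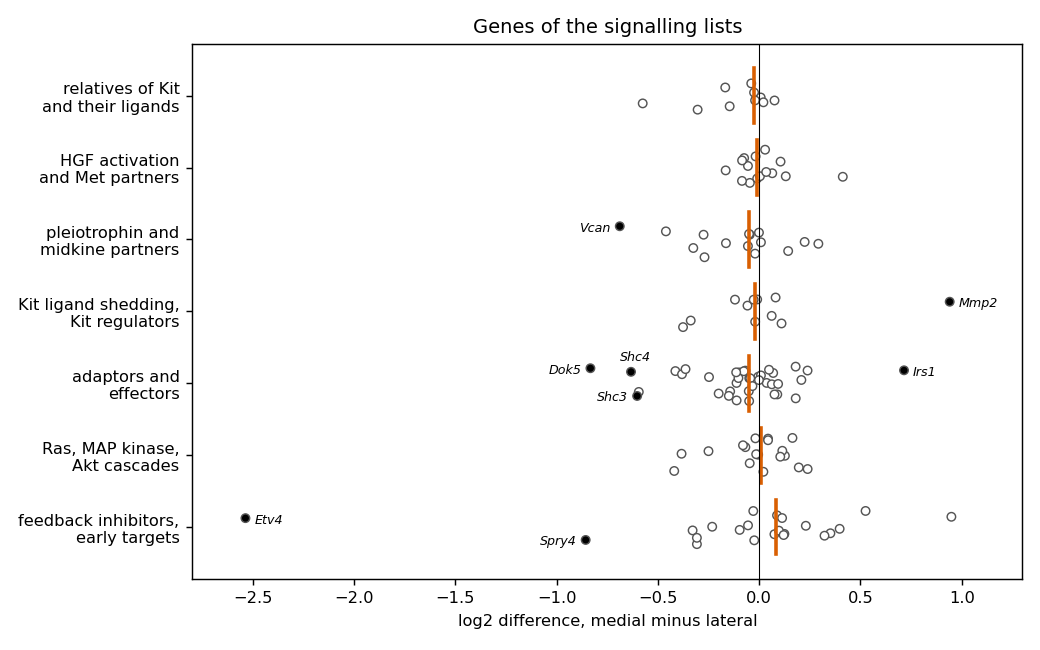
Log2 difference, medial minus lateral, of each measured gene on the 7 signalling lists with measured genes (1 point per gene, filled and named where it passed an adjusted p of 0.05), with the median of each list as an orange bar. The medians lie between -0.05 and 0.08, and Etv4 at -2.54 stands apart from the rest.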

How the data were processed

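RNA of sorted motor neurons was biotinylated with an Affymetrix whole-transcript kit, per the labels' protocols, and hybridised to 1 array per sample. The authors deposited 1 table of processed values, read as log2 from their range, 2.49 to 14.1. Its summarization, background correction, normalization and centring are not given in the sources used here. The build mm9 is named in the submitters' processing notes. Sample titles gave groups and replicate numbers, and name the replicates biological. Between any pair of samples at most 7 values were identical. The descriptions also give the medial and the lateral sample of each replicate number a shared specimen-like number, whose meaning no label states. Each p reflects only the spread among these arrays, and the number of embryos behind each array is not given.

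The fit used limma 3.58.1 (R 4.3.3) on every one of the 23332 rows, as a two-sided test of medial minus lateral with moderated variances and no block, and p was adjusted by the Benjamini-Hochberg method over the full table. It was tested on simulated data. The probe table gave 1 gene symbol to 14996 rows, 14941 of them updated to RefSeq symbols by Entrez identifier.

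The 8 genes, the 8 signalling lists and the 12 marker lists were chosen with earlier results of these data known. The text names the 8 genes, each list's genes past the threshold (up to 6) or else the 2 with the smallest p, the 5 closest patterns, column markers and the brightest other markers. The check of whether equal replicate numbers pair the samples stands with the alternatives.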

Additional observations from a re-analysis of the deposited data

How the results depend on the processing

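The call and direction of Kitl held under all 9 other settings on the full set of arrays at an adjusted p of 0.05 (log2 difference from -3.33 to -3.21) and in all 6 fits with a sample left out (-3.36 to -3.10). Ptn kept its direction in each. Its call was lost with the replicate number as a block (log2 difference -0.51, adjusted p = 0.0679) and under the rule of at least 1.5-fold (-0.51), and 5 of the 6 fits without a sample ended it, with log2 differences from -0.54 to -0.49. It was not tested where dim rows were left out, nor were Hgf and Ltk. Kit passed with quantile normalization (-0.43, adjusted p = 0.037), arrays centred on their medians (-0.43, 0.0481), dim rows left out (-0.44, 0.0394), rows with a single symbol (-0.44, 0.0328) and 1 row per gene (-0.44, 0.0326). In the last 3 settings fewer rows were tested. Met, Hgf and Ltk, which did not pass, changed sign. Met had -0.034 after quantile normalization. Without a sample, Met ranged from -0.052 to 0.13, Hgf from -0.035 to 0.014 and Ltk from -0.049 to 0.13. The cause of these changes was not tested. With the block, and with the 1.5-fold rule, 1 of the 8 genes passed in place of 2, and the fits without a sample gave 1 to 2. Among all rows the count of 717 was 481 with the block, 628 with the 1.5-fold rule and 326 to 538 without a sample, where fewer arrays were fitted. The other alternatives gave 801 to 1033. The block lowered the calls of Vcan, Mmp2, Dok5 and Irs1 below the threshold (adjusted p = 0.0591, 0.0899, 0.0679 and 0.134), and changed no other call of a gene on the signalling lists that the text names. Same-numbered medial and lateral samples deviated from their group means with correlations of 0.35, 0.067 and 0.015 over all rows. The 0.35 of replicate 1 was the highest of all pairings, and medial replicate 2 correlated best with lateral replicate 3 (0.30). Deviations from a mean of 3 samples depend on each other, so these values cannot decide whether the samples are paired. The labels do not say that the numbers, which the descriptions also share between columns, mark a common litter, embryo or day. For that reason the samples were not taken as pairs. No other row stood for any of the 8 genes, so that alternative was not run.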
